A study of Mus musculus with 4 samples.

Results

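The MHC class II genes examined here were Cd74, H2-Aa, H2-Ab1, H2-Eb1, H2-DMa, H2-DMb1 and Ciita, 7 of the 27514 genes that carried the same identifier in all libraries of a single-cell RNA-seq series on mouse small-intestinal adenomas. They were chosen on their levels in enterocytes, crypt cells, adenoma cells, macrophages and B cells of these same libraries, so the levels by cell class given here are a description and carry no test. Each level is the number of UMIs (unique molecular identifiers, 1 for each captured RNA molecule) of a gene per 1000000 UMIs of a cell class in a library, written UPM, and each positive share is the percentage of cells with at least 1 UMI. Since a UMI marks the 3′ end of a molecule, levels of different genes were compared without scaling by length.

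MHC class II molecules are pairs of an alpha and a beta chain that show peptides from engulfed proteins to CD4+ T cells. The invariant chain, Cd74, escorts the new pair to the endosome, where it is trimmed by proteases and H2-DM exchanges its last fragment for a peptide. Dendritic cells, macrophages and B cells make these genes constitutively under the transactivator Ciita, and enterocytes of the small intestine are known to make them too, under interferon-gamma.

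The series held 4 10x Genomics 3′ libraries of adenomas from C57BL/6 mice at 11 weeks of age, all of them labelled male, and all the mice carried ApcMin/+, an Apc allele that starts intestinal tumors. In the ApcMin group Lef1 was intact (Lef1 +/+), and in the VApcMinL group a floxed Lef1 (Lef1 fl/fl), coding for a Wnt pathway transcription factor, was deleted constitutively with Villin-Cre, which acts in the intestinal epithelium and not in immune cells. Each group had 2 libraries, replicate 1 made with kit version 2 and replicate 2 with kit version 3. Each library held the unsorted cells of 3 to 10 tumors, so a library is not a single tumor. How many animals gave the tumors of a library is not stated. Levels are given below in the order ApcMin 1, VApcMinL 1, ApcMin 2 and VApcMinL 2, unless the libraries are named.

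The libraries held 44660305 to 128247396 UMIs. Limits of at least 1000 UMIs and at most 20% mitochondrial UMIs were passed by 2146 to 4449 cells per library. The mitochondrial limit removed 27.5%, 27.3%, 62.9% and 30.5% of barcodes of that depth, by far the most in ApcMin 2. Classes were gated on marker genes, none of which was a member, giving 400, 1004, 1106 and 794 enterocytes, 166, 103, 72 and 225 crypt cells, 391, 524, 324 and 1721 adenoma cells, 103, 67, 20 and 49 macrophages and only 3, 4, 0 and 3 B cells. Barcodes with 10 to 100 UMIs, too few for a cell, gave the level of free RNA in each library, and 18 barcodes were shared between the kit 2 libraries and 0 between the kit 3 libraries. Lef1, the targeted gene, was at 10.8, 32.2, 39.9 and 25.6 UPM in adenoma cells, so in kit 2 it was higher in the library labelled VApcMinL, and a 3′ count need not come from the deleted part of the gene. Xist, which is made in female cells, was at 118 to 1197 UPM in the epithelial classes of the libraries labelled VApcMinL and at 0 to 0.305 in those labelled ApcMin, so sex, or a mixture of sexes, moved with the genotype label.

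In GRCm38, 5 members lie within 197 kb of chromosome 17, the mouse MHC. These are H2-DMa (ENSMUSG00000037649, chr17:34119541-34139101, + strand), H2-DMb1 (ENSMUSG00000079547, chr17:34153072-34160230, +), H2-Ab1 (ENSMUSG00000073421, chr17:34257689-34269419, +), H2-Aa (ENSMUSG00000036594, chr17:34282744-34287823, −) and H2-Eb1 (ENSMUSG00000060586, chr17:34305867-34316674, +). Ciita (ENSMUSG00000022504) lies at chr16:10480059-10528418 on the + strand. Class II promoters are known for a conserved module just before the start, which ends in an inverted CCAAT box bound by NF-Y and which the Ciita-dependent complex uses. The stretches of H2-Aa and H2-Eb1 are shown because both code for chains of a class II pair and hold that box. They come from RefSeq promoter sequences (GRCm38.p6), begin 110 and 121 bases before the start and overlap no annotated exon, and the capitals mark TGATTGG.
H2-Aa, chr17:34287847-34287933, − strand: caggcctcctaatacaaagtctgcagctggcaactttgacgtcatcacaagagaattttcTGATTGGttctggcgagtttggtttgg
H2-Eb1, chr17:34305746-34305832, + strand: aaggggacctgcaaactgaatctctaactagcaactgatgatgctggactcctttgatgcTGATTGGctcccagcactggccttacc
Windows of 300 bases (250 before and 50 after the start) were present for 4 members. TGATTGG, searched on both strands as TGATTGG or CCAATCA, was in 2568 of the 32851 windows (7.82%), and it stood on the gene's own strand 50 bases before the start in H2-Aa, 61 in H2-Eb1 and 63 in H2-DMb1. The 7 letters were not in the windows of H2-DMa. H2-Eb1 and H2-DMb1 also shared the 13-base run AACTGATGATGCT, 28 and 29 bases before the motif, which 3 of the 32851 windows held.

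Cd74 (ENSMUSG00000024610, chromosome 18), the invariant chain, was the most abundant member in macrophages, dendritic cells and enterocytes of every library. In macrophages it stood at 28880.1, 35051, 19218 and 15778 UPM, and in dendritic cells at 33009, 26284, 17579 and 18080. The few B cells had 26271, 23807 and 14807 in the 3 libraries that held any. Plasma cells, B-lineage cells that secrete antibody, had 5258, 10320, 5181 and 4724, which was 0.182 to 0.299 of the macrophage level of the same library. In enterocytes Cd74 was at 73.1, 132, 17.3 and 76.4, in crypt cells at 101, 45.1, 4.82 and 56.5, and in adenoma cells at 48.4, 50.2, 13.2 and 7.84. The professional antigen-presenting cells therefore lay above the epithelial classes without overlap in every library, with Cd74 207 to 1113 times higher in macrophages than in enterocytes, whereas the epithelial ranges overlapped each other.

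The chains of the class II pair followed the same order at lower levels. H2-Ab1, the beta chain of I-A, was at 8412, 10804, 7764 and 5803 UPM in macrophages and at 41.9, 59.7, 16.2 and 30.5 in enterocytes. Crypt cells had 30.5, 14.7, 2.06 and 9.29 and adenoma cells 24.2, 11.6, 3.24 and 3.22, so enterocytes were above crypt and adenoma cells in all 4 libraries. H2-Aa, its alpha chain partner, ranged from 5195 to 8765 in macrophages, from 3.93 to 24.6 in enterocytes, from 1.72 to 15.6 in crypt cells and from 1.70 to 14.1 in adenoma cells. H2-Eb1, the beta chain of I-E, ranged from 4041 to 6729 in macrophages, from 7.51 to 31.0 in enterocytes, from 1.03 to 17.9 in crypt cells and from 1.82 to 12.3 in adenoma cells; C57BL/6 mice carry a broken gene for the alpha partner of H2-Eb1 and make no I-E protein. All of the chains were lowest in the kit 3 ApcMin library in enterocytes and crypt cells. That library lost the largest share of barcodes to the mitochondrial limit, and the part of this in the levels was not tested.

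H2-DMa and H2-DMb1 encode the pair that loads peptide. In macrophages H2-DMa was at 1081, 1226, 802 and 514 UPM and H2-DMb1 at 836, 988, 712 and 445. Enterocytes had 8.15, 11.4, 4.06 and 7.12 of H2-DMa, above the adenoma cells of the same library, which had 3.63, 1.12, 0.65 and 0.60. H2-DMb1 was at 1.02 to 5.24 in enterocytes and 0.50 to 1.96 in adenoma cells, and was listed at 0 UMIs in all 3 libraries that held B cells. Those B cells numbered only 3, 4 and 3, with median depths of 1408, 1575.5 and 1261 UMIs. Counts of 0 in so few UMIs cannot show that the gene was absent. T cells had 52.7, 67.5, 74.7 and 42.1 of H2-DMa, above the enterocytes of the same library in all 4, as they were for Cd74 and H2-Aa.

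Ciita, known as the transactivator of class II genes, was rare in every class. Macrophages held 22, 12, 29 and 35 of its UMIs (48.1, 34.4, 145 and 110 UPM) and dendritic cells stood at 124, 29.8, 171 and 183 UPM. Enterocytes held 4, 6, 35 and 11 UMIs, or 0.93, 0.52, 1.18 and 0.74 UPM, and adenoma cells 1, 1, 0 and 3 UMIs. Ciita UMIs were thus present among enterocytes of all 4 libraries, at 51.7 to 148 times below the macrophages. Barcodes with 10 to 100 UMIs, which give the level of free RNA, were at 4.62, 5.64, 2.47 and 4.26 times the enterocyte level. Whether enterocytes made Ciita themselves was not tested. The counts in crypt and adenoma cells were at or near the floor of 3 counts, except for 7 in the crypt cells of VApcMinL 2.

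**Figure D1:**
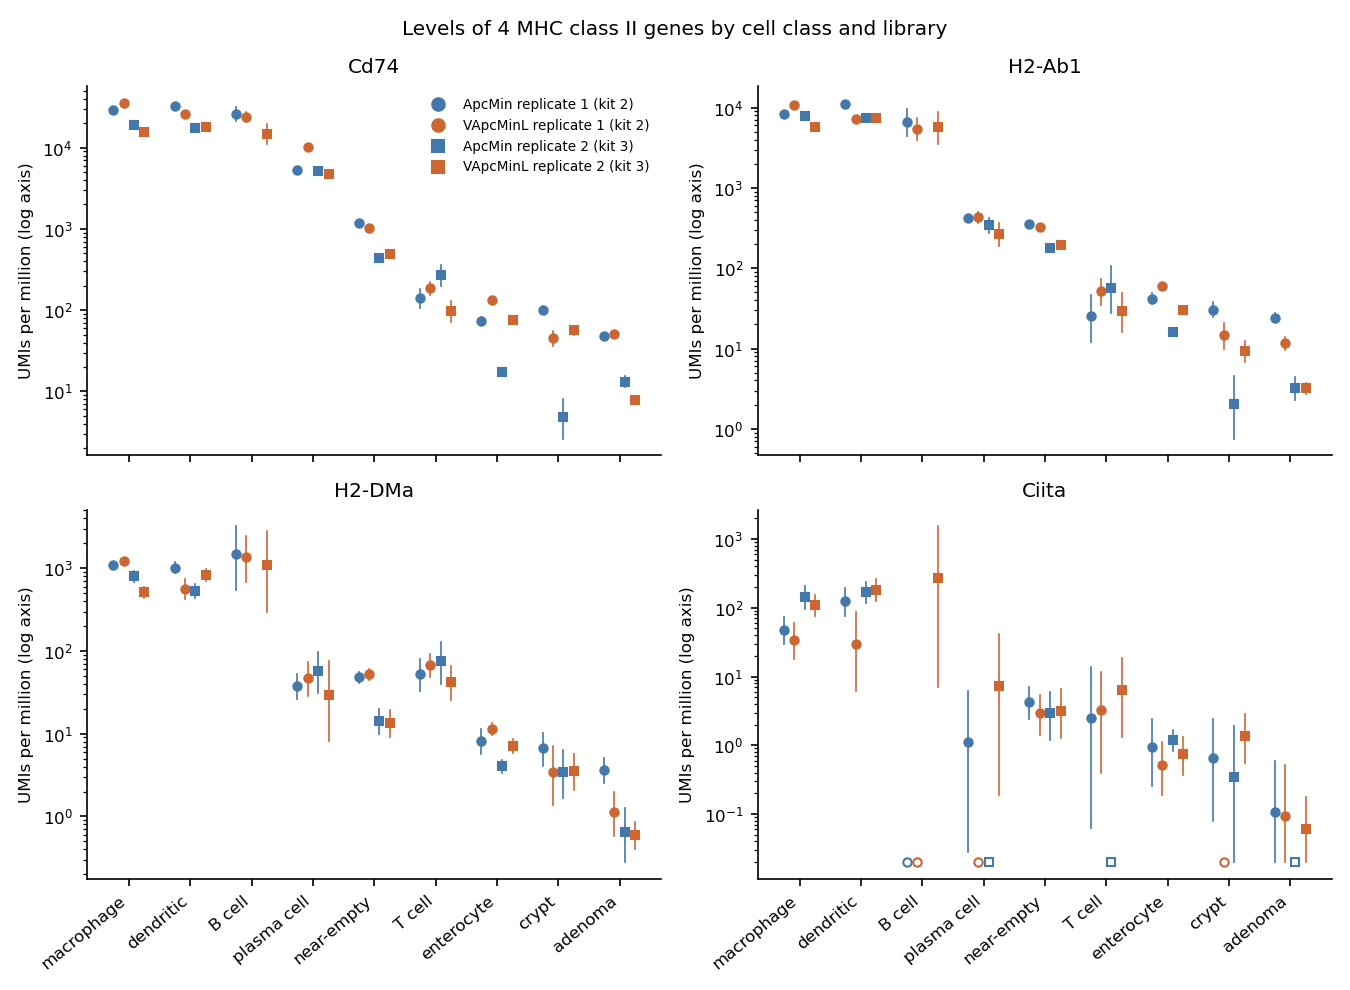
Levels of Cd74, H2-Ab1, H2-DMa and Ciita (log axis) in 9 barcode classes, in UMIs per 1000000 UMIs, 1 point per library with its exact 95% Poisson interval; blue is ApcMin, orange is VApcMinL, circles are kit 2 and squares kit 3, and open symbols at the bottom mark 0 UMIs. Macrophages, dendritic cells and B cells stand above all other classes for Cd74 and H2-Ab1, near-empty barcodes lie above T cells for Cd74 and H2-Ab1 but below them for H2-DMa, and Ciita is near its floor in crypt and adenoma cells.

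Summed over the 7 members, macrophages were at 47715 ± 13908 UPM (SD, n = 4), enterocytes at 156 ± 87.9 and adenoma cells at 54.7 ± 43.1. Within a library, macrophages were 322, 240, 810 and 225 times above enterocytes, and enterocytes were 1.60, 3.45, 2.38 and 8.85 times above adenoma cells. Enterocytes and crypt cells did not keep 1 order, since crypt cells had 177 against 167 in ApcMin 1 and 14.8 to 86.6 against 51.2 to 265 in the others. T cells, which in mice are not known to make class II molecules, had 334, 359, 632 and 240.1 UPM, above the enterocytes of every library. Per barcode the order turned round in 3 of the 4 libraries, with 1.80, 3.07, 1.37 and 2.65 member UMIs per enterocyte and 0.76, 0.88, 1.86 and 0.58 per T cell, whose median depth of 2012 to 2861 UMIs compares with 9692 to 26403.5 in enterocytes. With each cell drawn at random down to 1000 UMIs, T cells held 0.24, 0.30, 0.42 and 0.26 member UMIs on average. The highest single T cells held 7, 21, 17 and 12, and the highest enterocytes 4, 9, 4 and 9. The T-cell level thus rested in part on a few cells, and no doublet caller was run.

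Near-empty barcodes held more member RNA, as a part of all their UMIs, than enterocytes, crypt cells or adenoma cells. They were at 2129, 1885, 969 and 1082 UPM for the summed members, with 0.0808, 0.0670, 0.0360 and 0.0378 member UMIs per barcode. Barcodes with 20 to 200 UMIs gave 2528, 2289, 383 and 375 UPM, so the kit 3 level depends on the window, and it still lay above enterocytes, crypt cells and adenoma cells. As free RNA from a single source keeps its genes in 1 ratio, the members were set against C1qa, C1qb and C1qc, complement genes of macrophages that are not made by enterocytes. Macrophages held 3.55, 3.69, 3.20 and 2.84 member UMIs per C1q UMI and near-empty barcodes 10.7, 9.99, 4.59 and 4.37. Enterocytes held 11.8, 19.0, 58.2 and 234, resting on 61, 162, 26 and 9 C1q UMIs. The enterocyte ratio was thus close to that of the near-empty barcodes in ApcMin 1 and above it in the other 3 libraries, by the widest margin where C1q UMIs were fewest.

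Adenoma cells held 5.22, 9.47, 26.5 and 10.8 member UMIs per C1q UMI, below the near-empty barcodes in both kit 2 libraries and above them in both kit 3 libraries. Crypt cells held 9.33, 9.88 and 43.0, and had 0 C1q UMIs in VApcMinL 2. Set against Jchain, an antibody-joining chain made by plasma cells, near-empty barcodes held 0.292, 0.938, 3.24 and 4.63 member UMIs per Jchain UMI and enterocytes 0.278, 1.5, 7.72 and 18.7. For enterocytes both references gave the same order, with ApcMin 1 at the near-empty ratio and the other libraries above it. Barcodes with 20 to 200 UMIs held 0.363, 1.21, 0.702 and 0.809 member UMIs per Jchain UMI, lower in kit 3, and left that order as it was. Adenoma cells held 0.208, 0.770, 3.31 and 2.19 member UMIs per Jchain UMI and crypt cells 0.174, 0.988, 2.15 and 12.5. For these classes the references disagreed in part. Adenoma cells of VApcMinL 2 and crypt cells of ApcMin 2 were above the near-empty barcodes by C1q and below them by Jchain. Crypt cells of VApcMinL 1 went the other way by narrow margins, at 9.88 against 9.99 by C1q and 0.988 against 0.938 by Jchain. Against the barcodes with 20 to 200 UMIs the references gave the same order. Adenoma cells of VApcMinL 2 and crypt cells of ApcMin 2 were above by either, and crypt cells of VApcMinL 1 below. The level of dendritic cell RNA, which has little C1q, was not set apart in these ratios.

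**Figure D2:**
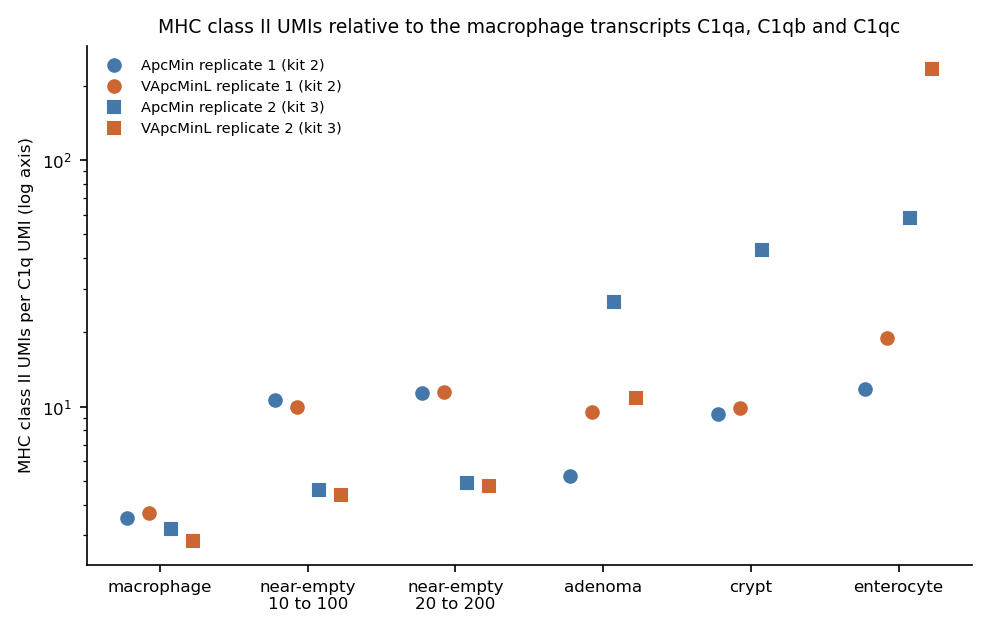
Member UMIs per C1q UMI (log axis) in macrophages, near-empty barcodes with 10 to 100 and 20 to 200 UMIs, adenoma cells, crypt cells and enterocytes, 1 point per library (blue ApcMin, orange VApcMinL, circles kit 2, squares kit 3). Enterocytes run from 11.8 in ApcMin 1, next to the near-empty barcodes, to 234 in VApcMinL 2, and macrophages lie between 2.84 and 3.69.

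The mix of members also differed by class. H2-Ab1 made up 25% (95% exact binomial interval 21.9 to 28.4), 22.5% (21.1 to 24.1), 31.7% (29.4 to 34.1) and 21.5% (19.8 to 23.4) of the member UMIs of enterocytes. In macrophages it made up 15.6% (15.2 to 16.1), 17% (16.5 to 17.5), 18.7% (17.9 to 19.6) and 18.2% (17.5 to 19.0), and in near-empty barcodes 16.9% to 18.4%. The enterocyte interval lay above the macrophage interval in all 4 libraries; these intervals, like all intervals and floors here, cover counting error only.

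H2-Aa showed the opposite, at 11.3%, 9.31%, 7.67% and 6.97% of member UMIs in enterocytes against 15.1%, 13.8%, 17.1% and 16.3% in macrophages and 12.5% to 16.9% in near-empty barcodes. H2-Ab1 therefore outnumbered its partner H2-Aa by more in enterocytes than in macrophages or near-empty barcodes, in all 4 libraries. Plasma cells carried far more of the invariant chain than of the chains it escorts, Cd74 being 87.0%, 93.2%, 88.0% and 91.0% of their member UMIs. Their H2-Aa was no more than 0.0134 of the macrophage level, H2-Ab1 0.0400 to 0.0501 and H2-Eb1 0.0265 to 0.0385. Plasma cell H2-Ab1 (266 to 432 UPM) and H2-Eb1 (140 to 220 UPM) still lay above the enterocyte levels. In T cells H2-DMa was 15.8%, 18.8%, 11.8% and 17.5% of member UMIs, against 1.61% to 2.01% in macrophages.

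To compare positive shares across depths, each cell was thinned at random to 1000 UMIs, which left out 3 enterocytes of VApcMinL 1. Cd74 was then found in 8.0% (95% exact interval 5.54 to 11.1), 11.4% (9.49 to 13.5), 1.45% (0.829 to 2.34) and 7.30% (5.59 to 9.34) of enterocytes. T cells, a class not known to make class II molecules in mice, gave 8.57% (4.88 to 13.7), 5.53% (3.06 to 9.11), 5.08% (1.06 to 14.1) and 6.06% (3.17 to 10.3). The Cd74 share of enterocytes thus lay above the T-cell interval only in VApcMinL 1 and inside it in the other 3 libraries. In both ApcMin libraries it was below the T-cell share, and this share alone is not taken there as expression. Before thinning T cells were shallower than enterocytes, so the same amount of free RNA would be a larger part of their UMIs. The T-cell share therefore cannot decide whether enterocytes made Cd74, which was not tested. Unthinned, 42.8%, 43.3%, 13.3% and 25.6% of enterocytes and 17.7%, 11.5%, 8.47% and 8.08% of T cells had a Cd74 UMI.

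For H2-Ab1 the thinned share of enterocytes was 5.75%, 6.99%, 1.81% and 5.04%, and that of T cells 0.571%, 2.77%, 3.39% and 3.03%. Enterocytes were above T cells in 3 of the 4 libraries and below them in ApcMin 2. Adenoma cells had 3.58%, 4.01%, 1.54% and 0.697% for Cd74 and 2.56%, 1.34%, 0.926% and 0.232% for H2-Ab1, below the T cells in every library for Cd74. In macrophages 95.5% to 100% of cells had Cd74 and 87.8% to 95% had H2-Ab1. Ciita was found in 3.88%, 1.49%, 10% and 8.16% of thinned macrophages and in 16.5%, 17.9%, 65% and 34.7% of unthinned ones. At least 3 members together were seen in 0%, 1.90%, 0.0904% and 1.26% of enterocytes and in 1.14%, 1.19%, 1.69% and 1.52% of T cells. In macrophages the share was 86.6% to 95%. Enterocytes were thus below T cells in both ApcMin libraries and in VApcMinL 2, and above them in VApcMinL 1.

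**Figure D3:**
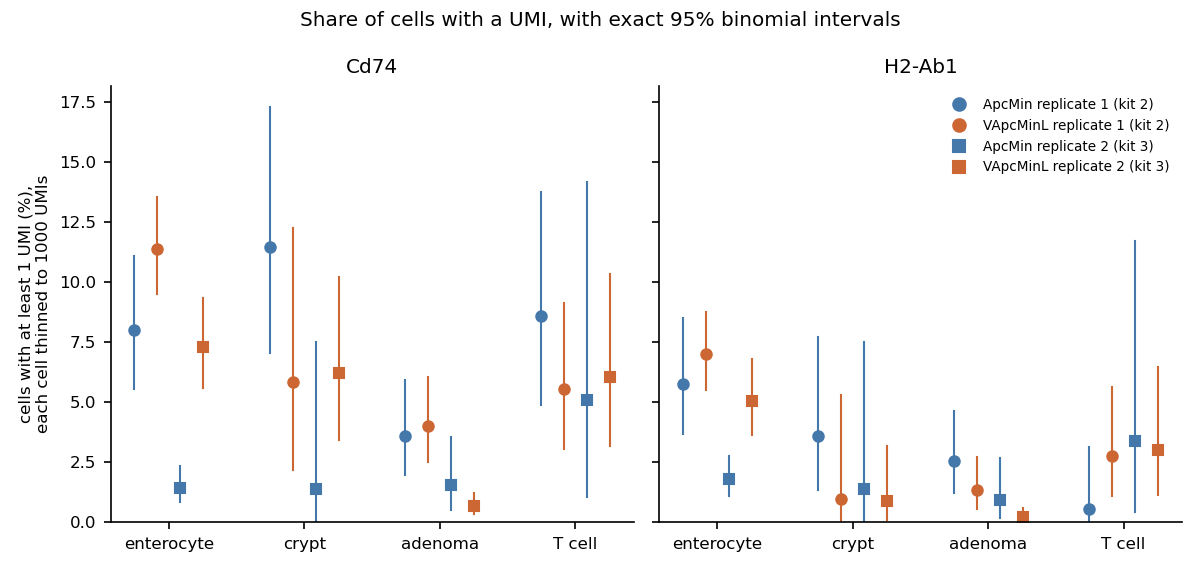
Percentage of cells with at least 1 UMI of Cd74 or H2-Ab1 after thinning every cell to 1000 UMIs, for enterocytes, crypt cells, adenoma cells and T cells, 1 point per library with its exact 95% binomial interval (blue ApcMin, orange VApcMinL, circles kit 2, squares kit 3). The Cd74 shares of enterocytes (1.45% to 11.4%) and T cells (5.08% to 8.57%) overlap, and adenoma cells are the lowest class for Cd74 in 3 of 4 libraries.

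Position along the villus gave a contrast that the choice of members had not used. Within each library, enterocytes were ranked by 8 landmark genes of the villus tip against 8 of its bottom, and split by rank into 3 equal zones. Zones cut by rank covered unlike landmark scores (tip UMIs over tip plus bottom UMIs). The lower zone ended at 0.114, 0.256, 0.219 and 0.0961, and the upper zone began at 0.384, 0.725, 0.643 and 0.486. The upper zone was tested against the lower zone with edgeR on summed UMIs, with the library as a block. H2-Ab1, H2-Aa, H2-Eb1 and Cd74 were higher in the upper zone, while H2-DMa and H2-DMb1 did not pass the threshold and Ciita had too few UMIs to be tested. Of the 6 members tested, 4 were called higher, where 25.6% of all 10367 genes tested were called higher (2657 genes) and 49.2% in either direction. The median member difference was 1.15 on the log2 scale and the median of all genes 0.01. Fits within each group were chosen after seeing the data. All 4 members were called higher within VApcMinL (1.69 to 2.22), where 1671 of 9998 genes were. Within ApcMin, where 1962 of 9692 genes were called higher, only H2-Ab1 was (0.90). H2-Aa (0.74), H2-Eb1 (0.36) and Cd74 (0.23) were not called there.

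H2-Ab1 went from 33.6, 23.1, 8.55 and 12.5 UPM in the lower zone to 49.2, 97.3, 18.2 and 53.2 in the upper zone. It was higher in the upper zone in 4 of 4 libraries, with a fitted log2 difference of 1.62 ± 0.22 (SE; edgeR adjusted p = 3.55e-05). H2-Aa went from 16.5, 10.6, 1.81 and 3.17 to 27.1, 41.1, 3.06 and 16.4, also higher in 4 of 4 libraries (1.63 ± 0.26, edgeR adjusted p = 0.000164). The steepest differences in both genes were in the VApcMinL libraries.

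H2-Eb1 was at 19.9, 13.1, 4.52 and 7.50 in the lower zone and 18.1, 44.5, 7.03 and 24.4 in the upper, higher in 3 of 4 libraries (log2 difference 1.23 ± 0.26, edgeR adjusted p = 0.00131). This call was lost when cells were limited to 10% mitochondrial UMIs (0.77, adjusted p = 0.0858). Cd74 went from 70.0, 58.8, 13.6 and 37.0 to 95.4, 181, 13.4 and 110.2, higher in 3 of 4 libraries and level in ApcMin 2 (1.06 ± 0.23, edgeR adjusted p = 0.0015). In ApcMin 2 the middle zone was the highest for all the chains and for Cd74, which stood there at 23.6.

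The loading pair differed less. H2-DMa was at 7.97, 6.98, 4.19 and 5.0 in the lower zone and 10.0, 9.21, 2.60 and 7.36 in the upper (log2 difference 0.21 ± 0.27, edgeR adjusted p = 0.536). H2-DMb1 was at 2.85, 2.96, 0.575 and 1.83 against 9.04, 5.83, 0.458 and 3.12 (0.92 ± 0.41, edgeR adjusted p = 0.0775). Ciita had 2, 2, 20 and 4 UMIs in the lower zone and 1, 1, 6 and 2 in the upper.

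**Figure D4:**
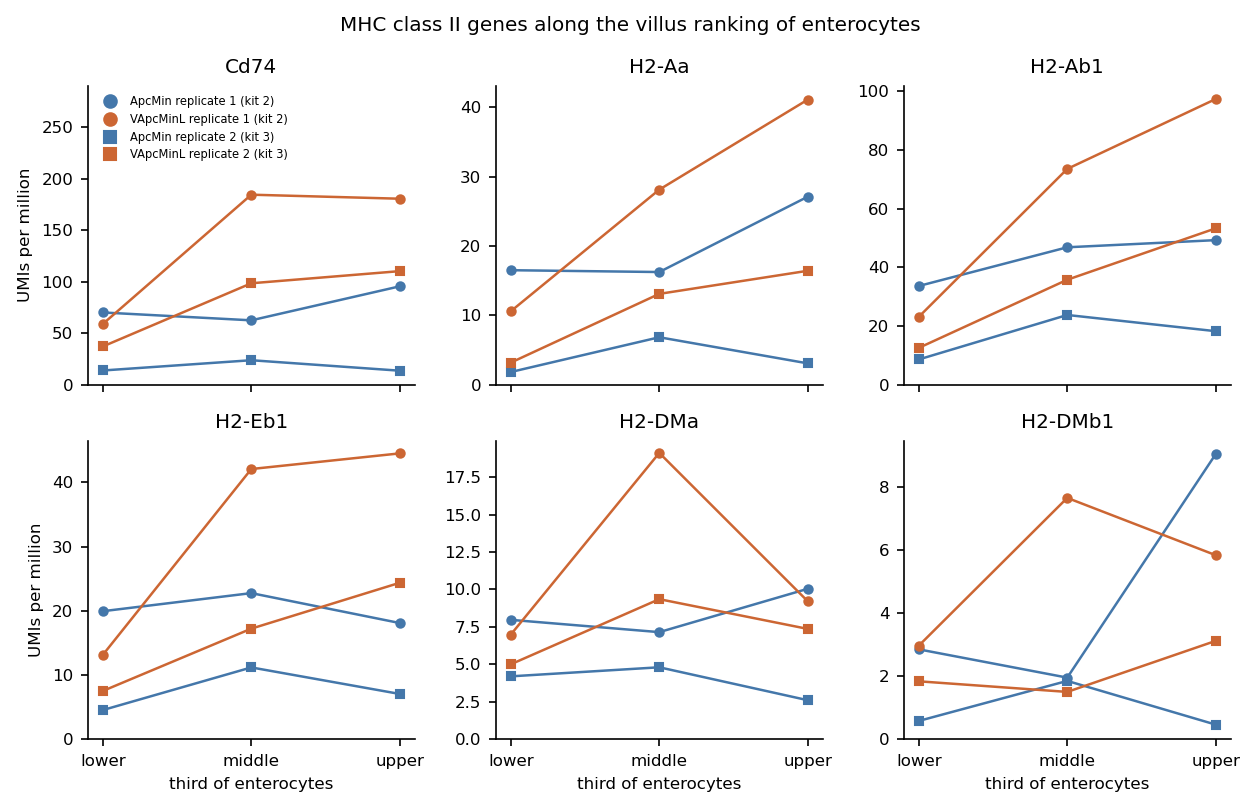
UPM (UMIs per 1000000 UMIs) of 6 members in the lower, middle and upper zone (3 equal parts by rank) of enterocytes ranked by villus landmark genes, 1 line per library (blue ApcMin, orange VApcMinL, circles kit 2, squares kit 3). H2-Ab1 and H2-Aa are higher in the upper than in the lower zone in all 4 libraries, with the steepest lines in the VApcMinL libraries, and H2-DMa shows no common direction.

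Depth, mitochondrial share and traces of immune RNA also moved between the zones. The median depth was 12200 to 31437 UMIs in the lower zone and 6918 to 17639 in the upper, and the mitochondrial share 8.27% to 11.7% and 11.7% to 13.7%. The 7 immune lineage markers together were at 0.0419 to 0.247 UMIs per 10000 in the lower zone and 0.0809 to 0.285 in the upper, and higher in the upper zone in 3 of 4 libraries. C1qa (0.76 ± 0.44), C1qb (0.89 ± 0.46), C1qc (−0.30 ± 0.66) and Jchain (0.22 ± 0.21) were not called between the zones by edgeR. In enterocytes with no UMI of 37 immune markers, a setting chosen after seeing the data, the same 4 members were called, with H2-Ab1 at 2.01 and Cd74 at 0.88 (edgeR adjusted p = 0.000189 and 0.0303).

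In a test chosen after seeing the data, the upper minus lower difference was set against the genotype. That of Cd74 was larger in VApcMinL by 1.44 ± 0.29 on the log2 scale (edgeR adjusted p = 0.0152), and it was the 1 member of 6 called where 0.154% of all genes were. The call was kept in 4 of the 11 alternatives run. It was lost, among others, without either ApcMin library (1.56 without ApcMin 1 and 1.32 without ApcMin 2). At a limit of 10% mitochondrial UMIs the difference was 0.38 and not called. The zones covered unlike landmark scores in the libraries, and the part of this in the difference was not tested.

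Other genes of the class II pathway and of the interferon-gamma response were read from lists chosen with earlier results of these data known. Of 19 class II pathway genes 10 were tested, 4 were higher in the upper zone and 0 lower, with a median log2 difference of 0.42, where 25.6% of all genes were called higher and 49.2% in either direction. The 4 were Lgmn (1.08) and Ctsl (0.95), endosomal proteases, Rfxank (0.58), a subunit of the factor that binds class II promoters, and Ctss (0.53), the protease that trims the invariant chain. Ctss went from 68.9, 79.1, 89.9 and 73.1 to 94.4, 113, 112 and 107.6 UPM (log2 difference 0.53 ± 0.11, edgeR adjusted p = 0.00132). Lgmn went from 14.2, 14.8, 8.63 and 11.7 to 25.1, 27.3, 15.6 and 30.0. Both were higher in the upper zone in 4 of 4 libraries.

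Of the 32 interferon-gamma response genes 21 were tested, of which 13 were higher in the upper zone and 2 lower, with a median of 0.71, against the same 25.6% and 49.2% of all genes. Those that rose included the class I heavy chains H2-K1 (1.59) and H2-D1 (1.00), their light chain B2m (1.2), the peptide-loading genes Tapbp (1.09) and Tap2 (0.73), and the immunoproteasome subunit Psmb8 (0.71). Zbp1 (1.55), a nucleic acid sensor, Igtp (1.28) and Irgm2 (0.99), immunity-related GTPases, Irf1 (0.79), a transcription factor, and Jak2 (1.47), Jak1 (0.50) and Ifngr2 (0.41) of the receptor pathway rose as well. Irgm1 fell by 1.06 and Psmb10 fell by 0.33 on the log2 scale. H2-K1 went from 256, 292, 518 and 340.0 UPM to 785, 996, 1346 and 881, and B2m from 862, 1088, 705 and 400.5 to 1776, 2535, 1440.0 and 956, each in 4 of 4 libraries. Ifng itself was at 0 UMIs in enterocytes and at 14, 15, 10 and 24 UMIs in T cells, or 35.1, 24.1, 57.5 and 50.5 UPM.

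The genotype comparison asked whether the members differed between VApcMinL and ApcMin cells of 1 class, tested with edgeR on UMI sums per library with the kit as a block. No member was called in any of the 4 classes tested, and neither the edgeR nor the DESeq2 fit with the same filter called one. Among all genes 0.0087% were called in enterocytes (1 of 11495), 0.0097% in crypt cells (1 of 10304), 0% in adenoma cells (0 of 12682, with 27 at an unadjusted p under 0.05 and 3 called by DESeq2) and 0.113% in macrophages (5 of 4415). With 2 libraries per group, whose labels do not say which animals they came from, p-values measure only the spread between these libraries.

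In enterocytes, 6 of 7 members were higher in the VApcMinL library of both kits, Ciita being the exception. Cd74 was at 73.1 and 132 UPM in kit 2 and at 17.3 and 76.4 in kit 3, a fitted log2 difference of 1.46 ± 0.33 (SE; edgeR adjusted p = 1.00). Its unadjusted edgeR p-value was 0.0026. H2-Aa (0.82 ± 0.30), H2-Eb1 (0.76 ± 0.26) and H2-Ab1 (0.67 ± 0.24) had unadjusted edgeR p-values of 0.0301, 0.0216 and 0.0248, so 4 of the 7 members were under 0.05, as were 167 of all 11495 genes, and none kept a call after adjustment. H2-DMb1 (0.65 ± 0.49) and H2-DMa (0.61 ± 0.32) were higher by less than their spread allowed to call, and Ciita stood at −0.80 ± 0.75. Without the filter on low counts Cd74 was called (1.47, edgeR adjusted p = 0.000636).

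Traces of other cells differed between these libraries as well. C1q stood at 14.2 and 13.9 UPM in the kit 2 enterocytes and 0.880 and 0.605 in kit 3, and Jchain at 602 and 177 in kit 2 and 6.63 and 7.59 in kit 3, in the order ApcMin and VApcMinL. Neither was higher in VApcMinL in both kits. In the Enterocyte class, the 7 immune lineage markers together were at 0.270 and 0.254 UMIs per 10000 in kit 2 and at 0.0449 and 0.0886 in kit 3, higher in VApcMinL in kit 3, and their part in the member values was not tested. In enterocytes without any immune marker UMI, Cd74 stood at 82.7 and 94.1 in kit 2 and at 6.20 and 48.0 in kit 3, still higher in the VApcMinL library of both, and H2-Ab1 at 43.7 and 38.2 in kit 2 and 5.39 and 20.6 in kit 3, no longer higher in kit 2.

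In crypt cells the kits went opposite ways, with Cd74 at 101 and 45.1 in kit 2 and at 4.82 and 56.5 in kit 3 (0.65 ± 0.86). H2-Ab1 stood at 0.05 ± 0.60 there. Cd74 in crypt cells was called only without ApcMin 1 (3.49, edgeR adjusted p = 0.0129). In adenoma cells all 6 members tested had negative differences, from H2-DMa at −0.93 ± 0.76 and H2-Ab1 at −0.56 ± 0.41 to H2-DMb1 at −0.26, with Cd74 at −0.35 ± 0.25. In macrophages, where Villin-Cre does not act, all 7 were below 0, from Ciita at −0.44 ± 0.38 to Cd74 at −0.02 ± 0.33. None of these passed the test.

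**Figure D5:**
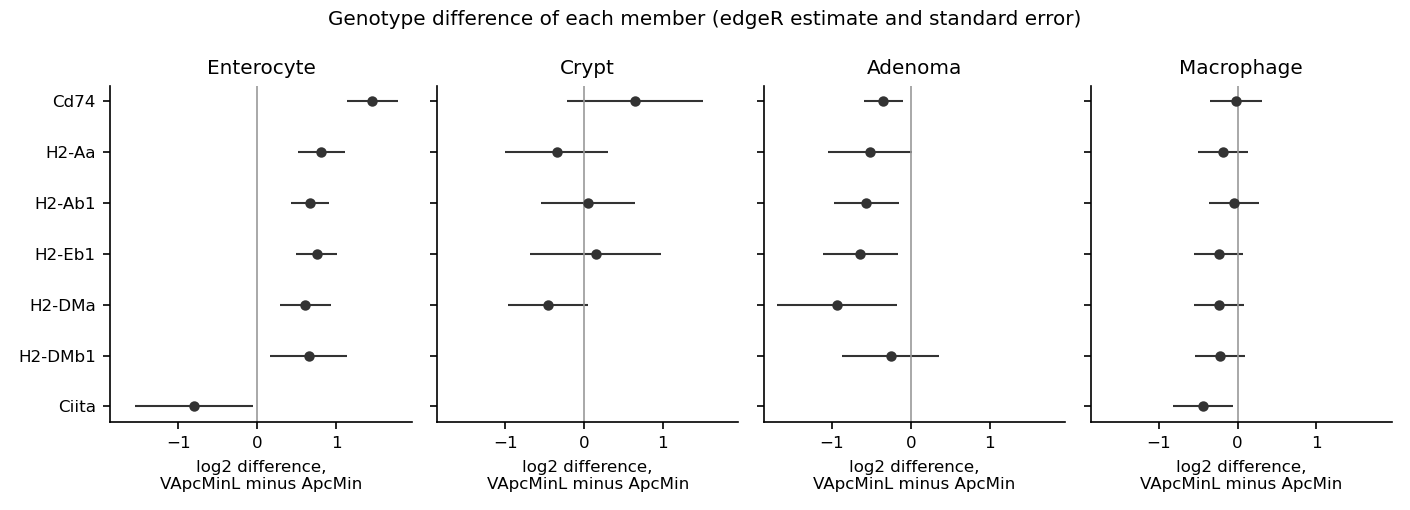
Fitted log2 difference VApcMinL minus ApcMin (edgeR, kit as a block) of each member tested in enterocytes, crypt cells, adenoma cells and macrophages, with its standard error; 0 means no difference. Enterocyte values are above 0 except for Ciita and those of adenoma cells and macrophages are below 0, and no value passed the adjusted threshold.

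No difference in positive shares between the genotypes passed its test. The Cd74 share of thinned enterocytes was 4.72% ± 4.63 (SD, n = 2) in ApcMin and 9.35% ± 2.89 (n = 2) in VApcMinL, a difference of 4.62 percentage points (two-sided exact permutation test, p = 0.667), of 3.39 points within kit 2 and 5.86 within kit 3. H2-Ab1 differed by 2.24 points (exact permutation p = 0.667), 1.24 within kit 2 and 3.23 within kit 3. In macrophages the H2-Ab1 share was 5.71 points lower in VApcMinL (exact permutation p = 0.333), lower by 4.17 in kit 2 and 7.24 in kit 3. With 2 libraries against 2 there are 6 arrangements and no p below 0.333, so none of the 28 share tests could pass, and every adjusted p was 1.

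Of the lists, 0 class II pathway genes were called between genotypes in any of the 4 classes, and of the interferon-gamma response genes only Cxcl10, a T-cell attracting chemokine, was called, in macrophages. Cxcl10 was at 317, 112, 311 and 3.13 UPM there, resting on 145, 39, 62 and 1 UMIs, a log2 difference of −2.75 ± 0.49 (edgeR adjusted p = 0.00596). The VApcMinL libraries were the lower ones in both kits, but the call was lost in 7 alternatives. These were the fit without the kit block (−2.42), DESeq2 (−3.83), doubled gate cuts (−1.16), a limit of 10% mitochondrial UMIs (−2.75), at least 2000 UMIs (−3.09), and leaving out ApcMin 1 (−2.27) or VApcMinL 2 (−1.45). Without VApcMinL 1 it was called at −6.57. The most abundant list genes, B2m, H2-K1 and Ctss, were not called between genotypes in enterocytes.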

How the data were processed

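The authors deposited raw UMI counts per gene and barcode, for all barcodes, from 10x Genomics 3′ libraries of unsorted adenoma cells. The submitters' processing notes name Cell Ranger 2.1.1, Seurat 3.1.1 and the mm10 build (GRCm38), and the headers of the kit 3 files name a later Cell Ranger. The kit 2 files listed 27998 genes and the kit 3 files 31053, of which the shared 27514 were used. UMIs outside them came to 0.192% to 0.568% of a library. A total of 0 value columns of other samples were present.

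Cells had at least 1000 UMIs and at most 20% mitochondrial UMIs. Classes needed 5 lineage marker UMIs, 90% of them epithelial for epithelial classes or at least 50% immune for immune ones, and 2 distinct markers above a cut per 10000 UMIs. No doublet caller was run. The members and gene lists were chosen with earlier results of these data known. For each class, the UMI counts of a library's cells were added up and tested with edgeR 4.0.16 in R 4.3.3 (TMM, quasi-likelihood test, filterByExpr with a minimum count of 10, Benjamini-Hochberg over all genes tested, threshold 0.05). DESeq2 1.42.0 was an alternative, and classes under 20 cells in a library were not tested. The fits were tested on simulated data. Replicate numbers mark the kit in the labels, so the genotype fit used the number as a block. Deviations from the group means correlated between the libraries of a kit at 0.40 in enterocytes, 0.53 in crypt cells, 0.15 in adenoma cells and 0.41 in macrophages. With 2 libraries per group this value is the same for both kits by construction. Positive shares were compared after thinning to 1000 UMIs by a two-sided exact permutation test over libraries.

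Named genes were the 7 members, the list genes called in a comparison or otherwise the 3 highest, and the 10 genes most alike to the members over class sums and across enterocytes. Alternatives covered the block, normalization, the count filter, cell limits, gates, thinning depth and leaving out each library. Total UMIs of 44660305 to 128247396 per library bear on counting error only, and in rare genes such as Ciita that error was set by their few UMIs. The precision of the genotype tests also rested on the spread between 2 libraries per group.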

Additional observations from a re-analysis of the deposited data

Results flagged for a closer look

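Within enterocytes, the villus difference of Cd74 differed between genotypes in a test of the difference itself, which was chosen after seeing the data. The upper zone minus the lower zone was 0.23 ± 0.19 on the log2 scale in ApcMin and 1.69 in VApcMinL, a difference of 1.44 ± 0.29 (edgeR, adjusted p = 0.0152, 16 of 10367 genes called, 0.154%). Cd74 was 95.4 against 70.0 UPM (upper against lower zone) in ApcMin 1 and 13.4 against 13.6 in ApcMin 2, but 181 against 58.8 in VApcMinL 1 and 110.2 against 37.0 in VApcMinL 2. The differences of H2-Ab1 (1.27 ± 0.32, edgeR adjusted p = 0.158), H2-Aa (1.47, 0.41) and H2-Eb1 (1.45, 0.236) went the same way and were not called. The Cd74 call was lost under 7 of the alternatives run, including leaving out ApcMin 1 or ApcMin 2, and with a limit of 10% mitochondrial UMIs the difference was 0.38 (adjusted p = 1). The part of the Xist difference between the groups in this result cannot be told apart from genotype.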

How the results depend on the processing

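Leaving out a library in the genotype fits also dropped the kit block, since 3 libraries leave no residual degrees of freedom with it, and the lone library of a group was taken to vary like the others. The replicate block (kit) changed no member call: without the replicate block no member was called in any class, but signs turned in crypt cells for Cd74 (−0.21) and H2-Ab1 (−0.60) and in macrophages for Cd74 (0.0575) and H2-Ab1 (0.0290). Members called in enterocytes went from 0 to 1 (Cd74) with no filter, and in crypt cells to between 0 and 1 when a library was left out. In macrophages Cd74 was 0.0324 and H2-Ab1 0.00603 with no filter, and 0.0873 and 0.0461 with gate cuts doubled. H2-Eb1 in enterocytes was −0.0017 with the 10% mitochondrial limit. Leaving out 1 library gave ranges on both sides of 0 for H2-Aa (−0.21 to 2.11) and H2-DMb1 (−0.24 to 1.80) in enterocytes, for Cd74 (−1.16 to 3.49) and H2-Ab1 (−1.53 to 2.61) in crypt cells, for Cd74 (−2.13 to 1.28) and H2-Ab1 (−2.27 to 1.32) in adenoma cells, and for Cd74 (−0.72 to 0.56) and H2-Ab1 (−0.57 to 0.45) in macrophages. In enterocytes Cd74 (0.50 to 2.57) and H2-Ab1 (0.01 to 1.45) kept their direction. The cause was not tested.

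Over all genes, the genotype counts of calls in enterocytes were 1 in the reported fit, 0 without the block, 2 by DESeq2, 36 with no filter, 0 without the deepest 5% of cells, 3 without immune marker cells and 0 to 5 with a library left out. In crypt cells they were 1, with 0 without the block, 4 by DESeq2, 49 with no filter, 4 at the 10% mitochondrial limit and 1 to 35 with a library left out. In adenoma cells 0 became 3 by DESeq2 and 0 to 4 with a library left out, and in macrophages 5 became 0 without the block or by DESeq2, 15 with no filter, 1 under each stricter cell limit and with doubled cuts, and 2 to 19 with a library left out.

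For the villus position fitted over both groups, all 4 calls held under every alternative run except H2-Eb1 at the 10% mitochondrial limit (0.77). There 3280 genes in place of 5104 were called. With a library left out 4012 to 5054 genes were called, Cd74 stood between 0.78 and 1.34 and H2-Ab1 between 1.35 and 1.86. H2-DMa was −0.0842 in enterocytes without immune marker UMIs. The Cd74 difference between genotypes in the villus contrast lost its call by DESeq2 (1.46), with 2 zones of enterocytes in place of 3 (0.85), at the 10% mitochondrial limit (0.38), at 2000 UMIs or more (1.54), without immune marker cells (1.80) and, of the libraries left out (1.32 to 1.56), without ApcMin 1 or ApcMin 2.

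Share differences (percentage points) moved in crypt cells for Cd74 (2.01 with thinning to 2000 UMIs, 0.376 with doubled cuts, −5.42 to 4.63 with a library left out) and H2-Ab1 (1.53 with thinning to 2000 UMIs, −2.68 to −0.459), in adenoma cells for Cd74 (0.125 with doubled cuts, −1.86 to 1.45) and in macrophages for Cd74 (0.146 with doubled cuts, −3.51 to 0.971). The macrophage fit without immune marker cells could not be run. Ciita rested on 35 UMIs or fewer per library in macrophages and in each class outside antigen-presenting cells, so differences in it were not detectable at this depth.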

Other observations

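Over 40 sums of a class in a library, the genes whose log2 levels were most alike to the mean of the members were Mpeg1 (Pearson r = 0.94), Bcl2a1a (0.93), Pld4 (0.93), Cybb (0.92) and Cd180 (0.91), followed by Tifab, Ms4a6c, Scimp, Kmo and Gm6377 at 0.90 each. Mpeg1 is a pore-forming protein of macrophages and was itself a macrophage gate gene, and Cybb is a subunit of the phagocyte oxidase. The sums share libraries and depth, 11960 genes were ranked, and the values are a description.

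Across single enterocytes thinned to 1000 UMIs the likeness was weak. The highest lowest-of-4-libraries correlation with the summed members was 0.09, for Fam213a, among 3804 genes, and Lct, mt-Nd4, Atp1b1, Sult1b1, Slc2a2, Socs2, Cdhr5, Ugt2a3 and Guca2b had between 0.04 and 0.06. At this sparsity the values are no finding.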
